A study of Mus musculus with 70 samples.

Results

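The 6 genes described here are neurotrophins, their receptors and a sorting receptor: the ligand genes Bdnf and Ntf3, the receptor genes Ngfr, Ntrk2 and Ntrk3, and Sort1. They were taken by mouse symbol from a raw count table of 50789 versioned Ensembl genes. Ngfr was chosen for its rise in Cic-S-KO cortex against WT, which had a wide spread between samples. That rise was the largest there only above a limit on mean level, given further on. The other 5 were taken with Ngfr as genes of the same signalling family. Cortex values of Cic-S-KO against WT are therefore given for all 6 as a description, with no test, and so is every contrast of Ngfr that rests on those cortex samples. Tests of the other 5 that use the Cic-S-KO cortex samples share them with this choice and are not independent of it. All 6 passed the filter on low counts in each tissue.

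Neurotrophins are secreted growth factors that are made as precursors, cut by furin-like enzymes, and bind Trk receptor tyrosine kinases as mature dimers. The p75 receptor, encoded by Ngfr, binds all mature neurotrophins with lower affinity and, together with sortilin, the product of Sort1, also binds their uncut precursors. In the adult brain, BDNF acting through TrkB is known for its role at synapses and is released with neuronal activity, and p75 is known for its high expression in cholinergic neurons of the basal forebrain.

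Capicua is a transcriptional repressor that is made as a short (CIC-S) and a long (CIC-L) isoform. Polyadenylated RNA was sequenced of knockouts of the short form (Cic-S-KO), knockouts of the long form (Cic-L-KO) and WT littermates pooled from both lines, in lung at postnatal day 6 and in cortex and cerebellum at 12 weeks of age. Each of the 9 groups held 8 samples, except Cic-S-KO cortex and cerebellum with 7, for 70 in all. Lung was labelled batch 1 and both brain regions batch 2, so tissue, age and batch cannot be told apart between lung and brain. The labels state neither the line from which each WT sample came nor, beyond replicate numbers, that each sample is a separate animal, so p-values measure the spread between these samples, which may be technical.

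Library totals ran from 17798655 to 35523037 assigned reads. The lung marker genes summed to between 18403 and 26261 CPM (counts scaled to library size, normalised by TMM) in lung and to at most 1.78 in brain. The measured cortex markers summed to 4071 to 6402 CPM in cortex against 569 to 815 in cerebellum, and the cerebellum markers to 4483 to 6753 CPM in cerebellum against 26.7 to 57.2 in cortex. The table counts reads per gene with all isoforms summed, so neither the loss of a Capicua isoform nor the balance between full-length and truncated Trk receptors could be checked. Whether counting used strand is not given in the sources used here, and Gm9885, which lies antisense to Ntrk3, had a mean of only 2.29 CPM.

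Per kilobase of merged exon, Sort1 was the most abundant of the 6 genes in every tissue of WT mice and Ngfr the least. In WT cortex the mean level per kilobase was 93.3 CPM for Sort1, 47.8 for Ntrk2, 8.28 for Bdnf, 7.04 for Ntrk3, 1.03 for Ntf3 and 0.496 for Ngfr. In WT cerebellum Ntrk3, at 10.2 CPM per kilobase, stood above Bdnf at 4.67, while Sort1 (39.1) and Ntrk2 (29.4) again led. In WT lung Sort1 was at 59.1 CPM per kilobase, and none of the other 5 exceeded the 2.76 of Ntrk2. All further levels in CPM are per gene and are compared only within a gene. They were normalised within each tissue, so their order between tissues is a description.

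**Figure D1:**
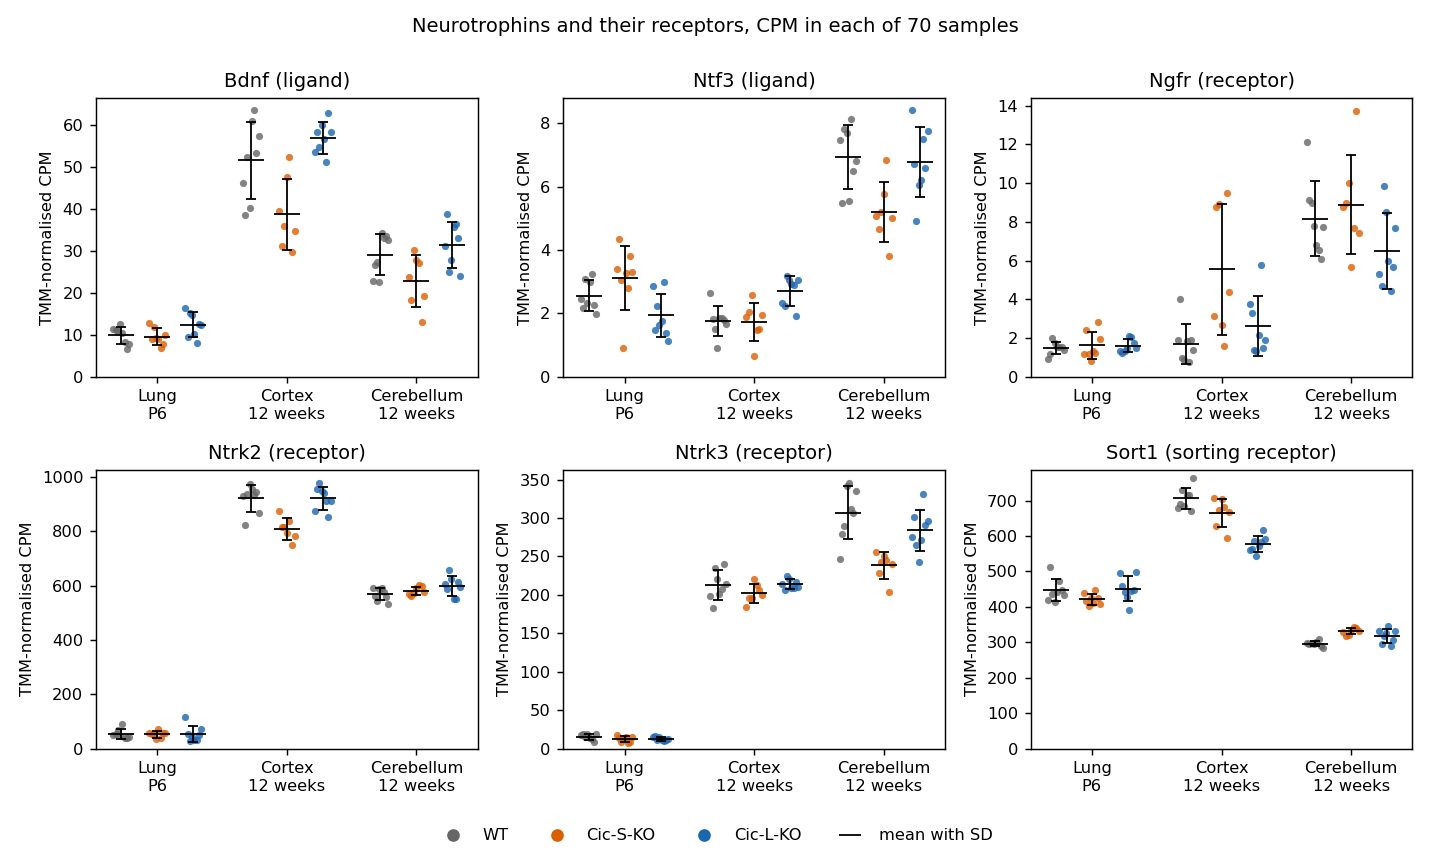
TMM-normalised CPM (linear axes from 0) of the 6 genes in each of the 70 samples, by tissue and genotype, 1 point per sample with bars at group means and SD. Ngfr in Cic-S-KO cortex spreads from 1.57 to 9.49 CPM, while Sort1 in Cic-L-KO cortex lies below all WT cortex samples.

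Bdnf encodes brain-derived neurotrophic factor, the main ligand of TrkB. The gene spans 109674700 to 109727007 of chromosome 2, plus strand (GRCm38, Ensembl ENSMUSG00000048482.14) and uses several start sites, of which RefSeq's promoter table holds 7. The 250 bases before the first of them, at chr2:109674450-109674699 on the plus strand (GRCm38.p6), are shown for comparison with those of Ngfr further on, and hold 0 GC boxes (GGGCGG on either strand), so that no base is in capitals:
Bdnf: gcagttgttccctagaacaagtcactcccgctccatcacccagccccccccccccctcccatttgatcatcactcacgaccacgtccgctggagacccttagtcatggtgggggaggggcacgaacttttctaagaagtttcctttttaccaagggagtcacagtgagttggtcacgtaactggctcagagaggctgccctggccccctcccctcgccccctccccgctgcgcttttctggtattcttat

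Bdnf was highest in cortex and lowest in lung. In cortex it ran from 38.5 to 63.4 CPM in WT (median 52.8, mean 51.5 ± 9.20 SD, n = 8), from 29.6 to 52.3 in Cic-S-KO (median 35.95, mean 38.7 ± 8.42, n = 7) and from 51.0 to 62.7 in Cic-L-KO (median 57.4, mean 56.8 ± 3.72, n = 8). The Cic-S-KO range reached into both others, but 4 of its 7 samples lay below every WT sample and 6 of 7 below every Cic-L-KO sample. As a description, the log2 fold change of Cic-S-KO against WT was -0.41 (SE 0.12). In these bulk samples, fewer cells that express a gene and less RNA per cell cannot be told apart.

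The knockouts were then compared with each other in cortex, a contrast that uses the same Cic-S-KO samples as the choice of Ngfr. Cic-S-KO held less Bdnf than Cic-L-KO did (log2 fold change -0.55, SE 0.12, edgeR quasi-likelihood test, adjusted p = 0.000994). Of all 16974 genes tested, 33.9% passed in this contrast, so 4 of the 5 members tested passing is to be read against that share. Bdnf did not differ detectably between Cic-L-KO and WT cortex (log2 fold change 0.14, adjusted p = 0.333).

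In cerebellum Bdnf ran from 22.5 to 34.3 CPM in WT (median 29.9, mean 29.1 ± 4.87, n = 8), from 12.9 to 30.1 in Cic-S-KO (median 23.8, mean 22.7 ± 6.15, n = 7) and from 23.9 to 38.7 in Cic-L-KO (median 32.1, mean 31.4 ± 5.47, n = 8). The 3 ranges overlapped. Neither knockout passed against WT in edgeR, with a log2 fold change of -0.36 for Cic-S-KO (SE 0.16, adjusted p = 0.163) and 0.11 for Cic-L-KO. The difference between the knockouts, -0.47 (SE 0.16), just missed the threshold with an adjusted p of 0.0533 in edgeR and passed with 0.0300 in DESeq2. The lowest cerebellar value, 12.9 CPM, belonged to Cic-S-KO replicate 6, which stood apart in other genes as well, as described with Ntrk3.

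In lung Bdnf was low, between 6.55 and 12.5 CPM in WT (median 10.6, mean 9.87 ± 2.09), 6.93 and 12.7 in Cic-S-KO (median 9.16, mean 9.58 ± 1.93) and 7.99 and 16.4 in Cic-L-KO (median 12.3, mean 12.3 ± 2.97, each n = 8). These ranges overlapped, and none of the 3 lung contrasts of Bdnf passed. In the order of the 9 means, the lowest brain group (Cic-S-KO cerebellum) and the highest lung group (Cic-L-KO) were the only neighbours whose mean ± SD did not overlap, and even there single samples did. In WT brain, Bdnf was higher in cortex than in cerebellum by 0.91 on the log2 scale (SE 0.13, adjusted p = 1.29e-07, edgeR), with no overlap between the 8 samples of each. Of 18032 genes, 73.5% passed between the WT regions and 46% had no overlap, and all 5 members tested were in both counts.

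Ntf3 encodes neurotrophin-3, the preferred ligand of TrkC, and lies on chromosome 6 from 126101412 to 126166910 on the minus strand. It was higher in cerebellum than elsewhere. WT cerebellum held 5.48 to 8.13 CPM (median 7.15, mean 6.93 ± 1.02, n = 8) and WT cortex 0.923 to 2.65 CPM (median 1.81, mean 1.76 ± 0.475, n = 8). The 2 regions did not overlap, and the log2 difference of cortex from cerebellum was -1.89 (SE 0.16, adjusted p = 3.04e-15, edgeR).

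In cortex Ntf3 rose in Cic-L-KO to between 1.92 and 3.19 CPM (median 2.92, mean 2.6995 ± 0.473, n = 8). Against WT that was a log2 fold change of 0.62 (SE 0.19, adjusted p = 0.00936, edgeR), with 5 of 8 samples above every WT sample. Of all genes tested in this contrast 43.2% passed, and of the 6 members 2 passed, Ntf3 and Sort1. Cic-S-KO cortex ran from 0.662 to 2.59 CPM (median 1.90, mean 1.73 ± 0.601, n = 7), a log2 difference from WT of -0.03 as a description. It was lower than Cic-L-KO by a log2 fold change of -0.65 (SE 0.20, adjusted p = 0.0108, edgeR), with 4 of 7 samples below every Cic-L-KO sample. This comparison shares its Cic-S-KO samples with the choice of Ngfr.

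In cerebellum Ntf3 was lowest in Cic-S-KO. Cic-S-KO held 3.80 to 6.84 CPM of Ntf3 (median 5.06, mean 5.20 ± 0.939, n = 7) and Cic-L-KO 4.90 to 8.40 (median 6.64, mean 6.77 ± 1.11, n = 8). Ntf3 fell in Cic-S-KO against WT by a log2 fold change of -0.42 (SE 0.12, adjusted p = 0.0289, edgeR), with 5 of 7 samples below every WT sample. In this contrast 8.23% of 16643 genes passed, and 3 of the 6 members did: Ntf3, Ntrk3 and Sort1. Ntf3 rests on single libraries here: without Cic-S-KO replicate 6 its log2 fold change was -0.35 with an adjusted p of 0.0791, and leaving out any of WT replicates 3, 4 and 6 and Cic-S-KO replicates 2 and 7 also ended the call (adjusted p 0.00715 to 0.0954 over all alternatives).

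Cic-S-KO cerebellum was also below Cic-L-KO cerebellum in Ntf3 (log2 fold change -0.38, SE 0.12, adjusted p = 0.0332, edgeR, where 12.4% of genes passed), and 8 of 23 fits that left out a library ended this call. Those 8 left out Cic-S-KO replicates 1, 2, 3, 6 and 7 or Cic-L-KO replicates 1, 6 and 8, and over all alternatives the adjusted p ran from 0.00378 to 0.0991. Cic-L-KO did not differ detectably from WT in cerebellum (log2 fold change -0.04). The effect of Cic-L-KO on Ntf3 differed between the regions, by 0.65 on the log2 scale (cortex minus cerebellum, SE 0.22, adjusted p = 0.0249, edgeR), while that of Cic-S-KO did not pass (0.38, adjusted p = 0.376).

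Lung Ntf3 ran from 1.98 to 3.26 CPM in WT (median 2.39, mean 2.57 ± 0.476), from 0.901 to 4.35 in Cic-S-KO (median 3.28, mean 3.12 ± 1.01) and from 1.12 to 2.99 in Cic-L-KO (median 1.70, mean 1.94 ± 0.692, each n = 8). Neither knockout differed detectably from WT in edgeR (log2 fold change 0.29, adjusted p = 0.390, and -0.41, adjusted p = 0.311). Between the knockouts the log2 difference, Cic-S-KO minus Cic-L-KO, was 0.69 (SE 0.22, adjusted p = 0.0391, edgeR), the 1 member to pass where 12.2% of all genes did. Of the 8 Cic-S-KO samples 6 lay above every Cic-L-KO sample and 1, replicate 4 at 0.901 CPM, lay below them all. This call was lost in 11 of the 24 fits that left out a library, those without Cic-S-KO replicate 1, 2, 3, 5, 7 or 8 or Cic-L-KO replicate 2, 4, 5, 7 or 8 (adjusted p up to 0.0916), and the adjusted p was 0.00257 without Cic-S-KO replicate 4. Over the 9 groups the cerebellum means came first, and the step from the lowest of them (Cic-S-KO) to Cic-S-KO lung was the only one between neighbours where mean ± SD did not overlap, although single samples did. Lung and cortex groups were mixed in the order below it.

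Ngfr encodes the p75 neurotrophin receptor and lies on chromosome 11 from 95568818 to 95587735 on the minus strand (GRCm38, Ensembl ENSMUSG00000000120.6). Its proximal promoter is shown because Ngfr chose the set. The 213 bases before the gene, at chr11:95587736-95587948 on the minus strand (RefSeq, GRCm38.p6), are 70.9% G or C and hold 3 GC boxes (GGGCGG), the recognition sequence of Sp-family factors, in capitals:
Ngfr: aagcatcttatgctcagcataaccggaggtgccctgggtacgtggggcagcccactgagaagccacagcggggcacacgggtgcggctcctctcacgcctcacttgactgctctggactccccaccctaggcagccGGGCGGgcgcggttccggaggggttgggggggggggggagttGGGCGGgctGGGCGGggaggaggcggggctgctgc

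RefSeq's promoter table matched 4 of the 6 members, with 11 entries. The octamers TGAATGAA and TGAATGGA, which Capicua is known to bind, were searched on both strands in the 250 bases before each start and were in 0 of the 11. Over all 32851 such windows in the table, 1.08% held the first and 1.01% the second. A GC box was in the single Ngfr window, in 2 of 7 Bdnf windows, in both Ntf3 windows and not in that of Ntrk2, against 32.7% of all windows. TGACG, the core of the cAMP response element, was in 1 of the 7 Bdnf windows and in 17.8% of all windows.

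Cortex Ngfr was at 3.13, 8.76, 8.90, 2.69, 1.57, 9.49 and 4.36 CPM in Cic-S-KO replicates 1 to 7 (median 4.36, mean 5.56 ± 3.38). WT cortex ran from 0.776 to 4.02 CPM (median 1.62, mean 1.71 ± 1.04, n = 8) and Cic-L-KO cortex from 1.35 to 5.75 (median 2.04, mean 2.64 ± 1.55, n = 8). Of the 7 Cic-S-KO samples 4 lay above every WT sample and 3 above every Cic-L-KO sample, while the other 3, at 1.57 to 3.13 CPM, lay within the WT range. WT replicate 2, at 4.02 CPM, was the one WT sample above 1.90 CPM.

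The log2 fold change that chose Ngfr was 1.71 (SE 0.44), and 1.53 to 2.02 when any 1 cortex library was left out. Its rank in that contrast was fixed by this choice and is only a description. The genes called higher there with a mean level of 1 log2 CPM or more numbered 425. At that level the rise of Ngfr was the largest, just above Sp7 at 1.67. Without a limit on level it ranked 7 of 480. Of all genes 6.53% passed in that contrast in either direction. Cic-S-KO stood above Cic-L-KO by 1.07 (SE 0.42), again a description. The neighbouring genes on the chromosome, Nxph3 and Phb, had log2 differences of -0.08 and -0.04 between Cic-S-KO and WT cortex.

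Ngfr varied widely in cortex within every genotype. The SD of its log2 CPM was 0.90 in Cic-S-KO, 0.60 in WT and 0.64 in Cic-L-KO. Among genes within 0.5 log2 units of its mean level, 99.1% of 1518 had a smaller SD in Cic-S-KO, 98.6% of 1753 in WT and 98.4% of 1556 in Cic-L-KO. The wide spread in Cic-S-KO cortex was part of the choice of Ngfr, so the share there follows from that choice. The corresponding shares in cerebellum ran from 92.3% to 93.9%. Among the lung groups they were 15.7% for Cic-L-KO, 25.4% for WT and 85.8% for Cic-S-KO.

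The cortex samples highest in Ngfr were also the highest in markers of cholinergic neurons. Chat, Slc5a7, Slc18a3, Lhx8 and Gbx1 summed to 5.77, 33.3, 29.1, 2.56, 10.5, 32.6 and 21.7 CPM in Cic-S-KO cortex replicates 1 to 7, to 1.77 to 20.6 in WT and to 2.05 to 21.1 in Cic-L-KO. The 7 cortex samples with the highest Ngfr were also the 7 with the highest sum: 4 Cic-S-KO, 1 WT and 2 Cic-L-KO samples, with sums of 16.4 to 33.3 CPM against at most 10.5 in the other 16. WT replicate 2 and Cic-L-KO replicate 6 were the highest of their genotype in both. Below these 7 the 2 orders were not the same: WT replicate 4 was at place 22 in Ngfr and 11 in the sum, and Cic-S-KO replicate 5 at 16 and 8. Chat and Slc5a7 were above 0 in every cortex sample, while Lhx8 was at 0 in at least 1 WT and 1 Cic-L-KO sample.

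Striatal neuron markers (6 genes, among them Drd1 and Drd2) summed to 83.0 to 268 CPM in WT cortex, to 87.2 to 313 in Cic-S-KO and to 77.0 to 285 in Cic-L-KO, and 5 of the 7 samples highest in Ngfr were among the 7 highest there. With the log2 sums of the 5 cholinergic and of the striatal markers as covariates, an alternative chosen after seeing the data, the log2 fold change of Ngfr between Cic-S-KO and WT cortex was 0.77 (SE 0.26) in place of 1.71, and between Cic-S-KO and Cic-L-KO 0.56 (SE 0.23) in place of 1.07. Schwann and olfactory ensheathing cell markers, of which 4 of 6 were measured, summed to 23.9 to 33.2 CPM in Cic-S-KO cortex, 19.9 to 29.7 in WT and 11.3 to 15.8 in Cic-L-KO. The part of these marker genes' cells in the Ngfr difference was not tested. The covariate fit cannot decide it, because the marker sums come from the same libraries and can themselves differ with genotype.

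**Figure D2:**
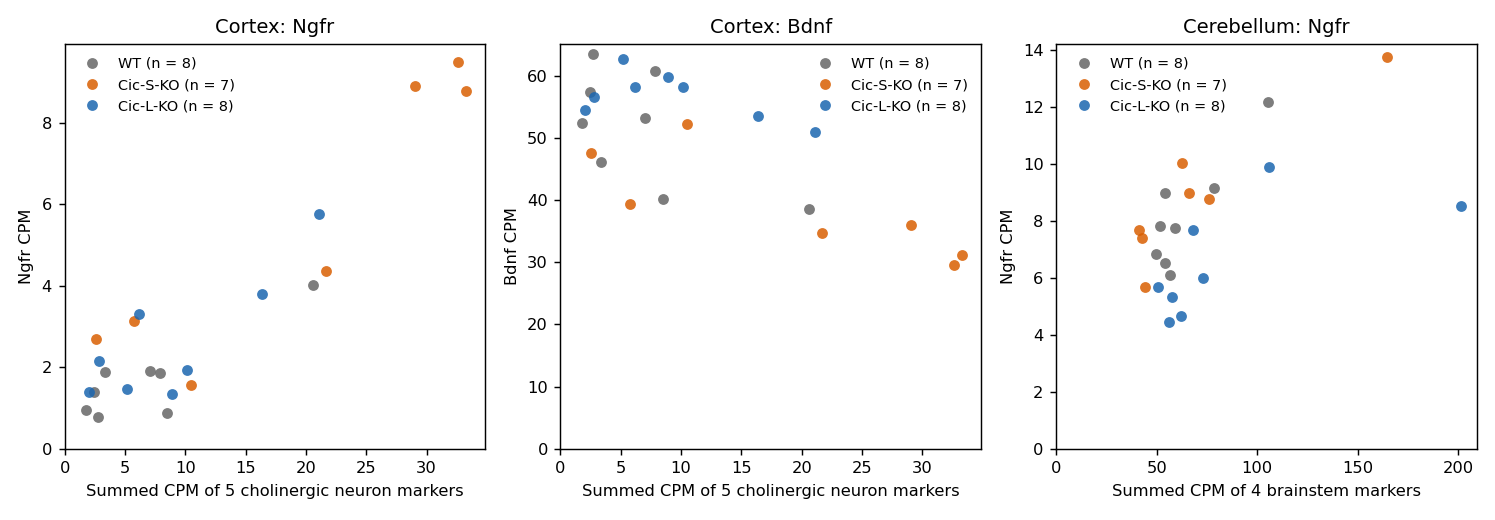
CPM of Ngfr and of Bdnf in cortex against the summed CPM of 5 cholinergic neuron markers, and CPM of Ngfr in cerebellum against the summed CPM of 4 brainstem markers, 1 point per sample, coloured by genotype, linear axes from 0. The 7 cortex samples highest in Ngfr are the 7 with the highest cholinergic marker sum, and 5 of them are among the 7 lowest in Bdnf.

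Ngfr in Cic-L-KO cortex did not differ detectably from WT (log2 fold change 0.64, SE 0.44, adjusted p = 0.256, edgeR). Bdnf ran opposite to Ngfr across cortex samples: 5 of the 7 samples highest in Ngfr were among the 7 lowest in Bdnf. With the same marker covariates the log2 difference of Bdnf was -0.24 against WT, as a description, and -0.45 against Cic-L-KO (adjusted p = 0.00183, edgeR). In deviations of log2 CPM from the genotype means over the 23 cortex samples, Pearson's r with Ngfr was -0.68 for Bdnf, -0.49 for Sort1, -0.45 for Ntrk3, -0.44 for Ntrk2 and 0.35 for Ntf3. The genes most like Ngfr by this measure, of 15539 compared, were Isoc1 (0.86), Irs4 (0.83), Zfp467 (0.82), Ass1 (0.82) and Agt (0.82). These values share libraries and tissue pieces and are given as a description.

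In cerebellum Ngfr was higher and more even. WT held 6.10 to 12.1 CPM (median 7.77, mean 8.16 ± 1.95, n = 8), Cic-S-KO 5.69 to 13.7 (median 8.76, mean 8.89 ± 2.54, n = 7) and Cic-L-KO 4.43 to 9.87 (median 5.83, mean 6.51 ± 1.96, n = 8). All 3 ranges overlapped. Neither Cic-S-KO (log2 fold change 0.13, SE 0.19, adjusted p = 0.728) nor Cic-L-KO (-0.32, adjusted p = 0.223) passed against WT in edgeR, and the knockouts did not pass against each other (0.45, adjusted p = 0.122).

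The 4 brainstem markers (Slc6a5, Hoxb3, Hoxb5 and Hoxa5) summed to 49.5 to 105 CPM in WT cerebellum, 41.2 to 165 in Cic-S-KO and 50.7 to 201 in Cic-L-KO, against at most 0.353 in cortex. With their log2 sum as a covariate, also chosen after seeing the data, Ngfr passed as lower in Cic-L-KO than in WT (log2 fold change -0.49, adjusted p = 0.00179; 0.00179 to 0.398 over all alternatives) and as higher in the Cic-S-KO than in the Cic-L-KO samples (0.57, adjusted p = 0.000583; 0.000583 to 0.281 over all alternatives). The call between the knockouts was also made without Cic-L-KO replicate 3 (adjusted p = 0.0456). The difference between Cic-S-KO and WT stayed at 0.09 (adjusted p = 0.668).

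Lung Ngfr was near 1.5 CPM in all genotypes: 0.945 to 1.98 in WT (median 1.53, mean 1.48 ± 0.316), 0.795 to 2.83 in Cic-S-KO (median 1.28, mean 1.62 ± 0.704) and 1.25 to 2.10 in Cic-L-KO (median 1.49, mean 1.60 ± 0.330, each n = 8). The ranges overlapped and no lung contrast of Ngfr passed. From the highest mean to the lowest, the 9 groups ran from the cerebellum groups (Cic-S-KO, then WT, then Cic-L-KO) through cortex (Cic-S-KO, then Cic-L-KO, then WT) to lung (in the order of cortex), and every pair of neighbours overlapped in mean ± SD. As a description, WT cortex was below WT cerebellum by a log2 difference of -2.18, with all 8 cortex samples below all 8 cerebellum samples.

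Ntrk2 encodes TrkB, the receptor of BDNF, and spans 58806569 to 59133970 of chromosome 13, plus strand. Its truncated form, without the kinase domain, is abundant in astrocytes and is counted here with the full-length form. WT cortex held 822 to 974 CPM (median 937, mean 921 ± 50.4, n = 8) and Cic-L-KO cortex 853 to 979 (median 926, mean 921 ± 42.6, n = 8), and the log2 difference between them was 0.00 (SE 0.036, adjusted p = 0.996, edgeR). Cic-S-KO cortex held less, 749.6 to 873 CPM (median 815, mean 809 ± 39.8, n = 7), with 5 of 7 samples below every WT sample and 6 of 7 below every Cic-L-KO sample.

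As a description, the log2 difference of Cic-S-KO from WT was -0.19 (SE 0.038), and -0.15 with the cholinergic and striatal covariates. Against Cic-L-KO the difference was also -0.19 (SE 0.038, adjusted p = 0.000223, edgeR) and kept its side of the threshold under each alternative except a minimum size (2.23e-05 to 0.000968). All these fits share their Cic-S-KO samples with the choice of Ngfr. The astrocyte markers summed to 4017 to 5256 CPM in WT cortex, 3488 to 5188 in Cic-S-KO and 4374 to 5662 in Cic-L-KO. Their part in the Ntrk2 difference was not tested.

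Cerebellar Ntrk2 did not follow cortex. WT held 531 to 592 CPM (median 569.98, mean 567.8 ± 22.6, n = 8), Cic-S-KO 560.0 to 601 (median 575, mean 581 ± 15.5, n = 7) and Cic-L-KO 549 to 657 (median 601, mean 598 ± 36.2, n = 8). The ranges overlapped and no contrast passed. The effect of Cic-S-KO was lower in cortex than in cerebellum by -0.22 on the log2 scale (SE 0.053, adjusted p = 0.0108, edgeR), with a cerebellar log2 fold change of 0.03. Of all 18032 genes 4.50% passed this test of the region difference, and of the 5 members tested 3 passed, Ntrk2, Ntrk3 and Sort1. This test contains the contrast of Cic-S-KO against WT cortex that chose Ngfr, so its p-values are not independent of that choice.

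Lung Ntrk2 was lower, between 38.6 and 92.0 CPM in WT (median 47.8), 33.7 and 70.3 in Cic-S-KO (median 54.7) and 27.6 and 115.7 in Cic-L-KO (median 47.4), with overlapping ranges and no contrast past the threshold. Over the 9 groups the 3 tissues fell into separate blocks of Ntrk2, cortex above cerebellum above lung, with no overlap of single samples between neighbouring blocks. In WT the log2 difference of cortex from cerebellum was 0.78 (SE 0.036, adjusted p = 2e-25, edgeR).

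Ntrk3 encodes TrkC, the receptor of neurotrophin-3, and lies on chromosome 7 from 78175959 to 78738012 on the minus strand. Its order by tissue was that of Ntf3 in brain, with cerebellum above cortex. WT cerebellum held 246 to 346 CPM (median 309, mean 307 ± 34.6, n = 8) and WT cortex 182 to 241 (median 211, mean 212 ± 19.4, n = 8). These did not overlap, and the log2 difference of cortex from cerebellum was -0.45 (SE 0.057, adjusted p = 1.88e-09, edgeR).

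Ntrk3 fell in Cic-S-KO cerebellum, to between 204 and 255 CPM (median 243, mean 238 ± 17.4, n = 7). The log2 fold change against WT was -0.37 (SE 0.067, adjusted p = 0.00172, edgeR), and 5 of 7 samples lay below every WT sample. Cic-L-KO cerebellum lay between the others, at 243 to 331 CPM (median 283, mean 284 ± 26.6, n = 8), and its difference from WT did not pass (-0.11, adjusted p = 0.239). Cic-S-KO was below Cic-L-KO by -0.26 (SE 0.067, adjusted p = 0.0122, edgeR).

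Cic-S-KO replicate 6 of cerebellum held the lowest Ntrk3 (204 CPM), Ntf3 (3.80 CPM) and Bdnf (12.9 CPM) of its group and the highest Ngfr (13.7 CPM). The brainstem markers summed to 165 CPM in it against at most 75.9 in the other 6 Cic-S-KO samples. Choroid plexus markers summed to 4195 CPM in it, and their sums in the other cerebellum samples are not given here. In cortex those markers also varied widely, from 21.3 to 589 CPM in WT, 9.43 to 619 in Cic-S-KO and 18.7 to 1297 in Cic-L-KO. Without it, the log2 fold change of Ntrk3 against WT was -0.33 (adjusted p = 0.00436), and with the brainstem covariate it was -0.36 (adjusted p = 1.29e-05; 1.29e-05 to 0.0186 over all alternatives). Granule neuron markers summed to 1569 to 2602 CPM in Cic-S-KO, 1831 to 2581 in Cic-L-KO and 2479 to 3042 in WT cerebellum. Inhibitory neuron markers summed to 1176 to 1433 CPM in Cic-S-KO and 1223 to 1461 in Cic-L-KO, against 926 to 1168 in WT. The part of these cell type markers in the fall of Ntrk3 and Ntf3 was not tested.

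In cortex Ntrk3 ran from 184 to 221 CPM in Cic-S-KO (median 199, mean 202 ± 12.3, n = 7) and from 207 to 225 in Cic-L-KO (median 212, mean 214 ± 6.32, n = 8), both overlapping WT. As a description Cic-S-KO differed from WT by -0.07 on the log2 scale, and Cic-L-KO differed by 0.01 (adjusted p = 0.883, edgeR). The Cic-S-KO effect on Ntrk3 was higher in cortex than in cerebellum by 0.29 (SE 0.085, adjusted p = 0.0372, edgeR), which became 0.0705 with no filter on low counts (0.0203 to 0.0705 over all alternatives). That test contains the contrast of Cic-S-KO against WT cortex that chose Ngfr and is not independent of the choice. Lung Ntrk3 lay between 8.66 and 19.3 CPM in WT (median 16.1), 7.26 and 17.6 in Cic-S-KO (median 13.5) and 9.53 and 16.7 in Cic-L-KO (median 11.9), with no contrast past the threshold. In the order of the 9 means the cerebellum groups stood above cortex and cortex above lung, and only the step from cortex to lung had no overlap of single samples.

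Sort1 encodes sortilin, which sorts precursor neurotrophins inside the cell and binds them together with p75 at the surface. The gene spans 108284082 to 108361511 of chromosome 3, plus strand. Its level changed in Cic-L-KO in opposite directions in the 2 brain regions. In cortex, Cic-L-KO held 542 to 615 CPM (median 577, mean 577 ± 22.7, n = 8), below every WT sample at 671 to 763 (median 702, mean 706 ± 30.5, n = 8). The log2 fold change was -0.29 (SE 0.035, adjusted p = 8.96e-08, edgeR). In this contrast 7.25% of all genes had all Cic-L-KO samples below all WT samples.

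Cic-S-KO cortex lay between, at 594 to 706 CPM (median 672, mean 665 ± 40.7, n = 7), and differed from WT by -0.09 on the log2 scale as a description. It was above Cic-L-KO by 0.21 (SE 0.037, adjusted p = 4.80e-05, edgeR), with 6 of 7 samples above every Cic-L-KO sample. This comparison, too, shares its Cic-S-KO samples with the choice of Ngfr. Excitatory cortical neuron markers, of which 4 of 5 were measured (Slc17a7, Neurod6, Tbr1 and Camk2a), moved with Sort1: they summed to 4071 to 4646 CPM in Cic-L-KO cortex, below the 5420 to 6402 of WT and the 5001 to 6310 of Cic-S-KO. Their part in the Sort1 difference was not tested. With the cholinergic and striatal covariates Cic-L-KO differed from WT by -0.27 (adjusted p = 5.48e-08; 5.52e-14 to 9.75e-07 over all alternatives).

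In cerebellum Sort1 rose in Cic-S-KO to 319 to 344 CPM (median 332, mean 331 ± 9.40, n = 7), above every WT sample at 284 to 308 (median 297, mean 296 ± 7.20, n = 8). The log2 fold change was 0.16 (SE 0.035, adjusted p = 0.00421, edgeR), and 0.769% of all genes had all Cic-S-KO samples above all WT samples. Cic-L-KO held 290.4 to 346 CPM (median 322, mean 318 ± 19.0, n = 8), a log2 fold change of 0.11 (SE 0.033, adjusted p = 0.0234, edgeR) with 5 of 8 samples above every WT sample. It was the 1 member of 6 to pass in Cic-L-KO cerebellum, where 21.5% of all genes did. That call was lost without Cic-L-KO replicate 5 (0.09, adjusted p = 0.0598), with no low-count filter (adjusted p = 0.0643) and with GC content bins removed (0.08, adjusted p = 0.0728), over a range from 0.00708 to 0.0728. The knockouts did not differ detectably from each other (0.06, adjusted p = 0.293).

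The difference between regions was itself tested. The Cic-L-KO effect on Sort1 was lower in cortex than in cerebellum by -0.40 (SE 0.049, adjusted p = 2.46e-08, edgeR), where 23% of genes passed and 2 of the 6 members, Sort1 and Ntf3, did. The Cic-S-KO effect was lower in cortex by -0.25 (SE 0.051, adjusted p = 0.00311, edgeR). The test of the Cic-S-KO effect contains the contrast of Cic-S-KO against WT cortex that chose Ngfr and is not independent of the choice. In lung Sort1 stood between the brain regions, at 412 to 511 CPM in WT (median 439.6), 402 to 446 in Cic-S-KO (median 421) and 391 to 498 in Cic-L-KO (median 446), with overlapping ranges and no contrast past the threshold. No lung sample overlapped a brain sample in Sort1, so cortex, lung and cerebellum formed separate blocks in the order of levels, and within cortex Cic-L-KO stood apart from the Cic-S-KO mean ± SD but not from all its samples. In WT brain the log2 difference of cortex from cerebellum was 1.34 (SE 0.035, adjusted p = 7.91e-36, edgeR).

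**Figure D3:**
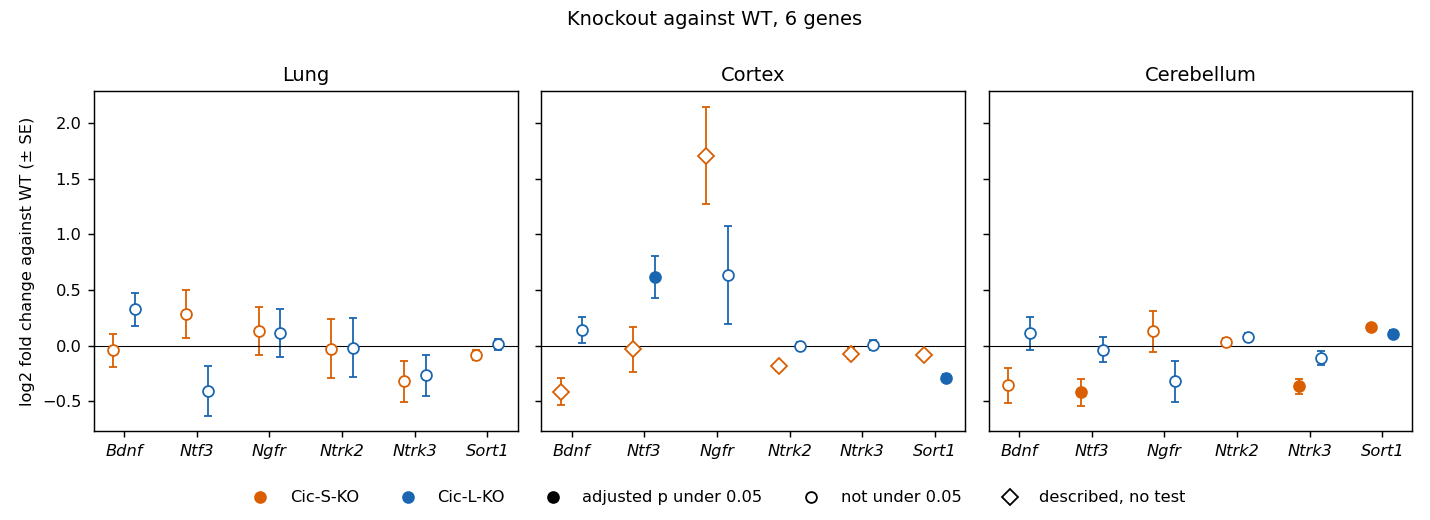
Log2 fold change (± SE) of each knockout against WT for the 6 genes in lung, cortex and cerebellum. The Cic-S-KO values in cortex include the contrast that chose Ngfr (1.71) and carry no test, and Sort1 in Cic-L-KO lies at -0.29 in cortex and 0.11 in cerebellum.

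In P6 lung, none of the 6 genes passed against WT in either knockout in edgeR, where 15.7% of 16695 genes passed in Cic-S-KO and 4.89% passed in Cic-L-KO. At an unadjusted p under 0.05 0 members passed in Cic-S-KO and 1 passed in Cic-L-KO, Bdnf (log2 fold change 0.33, unadjusted p = 0.0369). DESeq2 also called 0 in both. Log2 fold changes of the 6 ran from -0.32 for Ntrk3 to 0.29 for Ntf3 in Cic-S-KO and from -0.41 for Ntf3 to 0.33 for Bdnf in Cic-L-KO.

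A further ligand gene, Ntf5, which encodes neurotrophin-4, was found mainly in lung (9.04 ± 0.860 CPM in WT), and neither knockout passed (log2 fold change 0.18, adjusted p = 0.132, and 0.28, adjusted p = 0.0532).

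Of the other 43 genes on 7 lists of the neurotrophin pathway, 42 were tested in cortex, and in Cic-L-KO 13 rose and 10 fell, where 43.2% of all genes passed. Their median log2 fold change was 0.06 against 0.01 over all genes, and the median absolute value 0.19 against 0.18. The counts within each list below stand against that same 43.2%. Among the proneurotrophin processing enzymes 4 of 5 rose: Furin (log2 fold change 0.37, adjusted p = 8.75e-05, edgeR), Pcsk5 (0.38), Pcsk6 (0.32) and Pcsk7 (0.18). Of 14 Trk adaptors and modulators 5 rose and 4 fell, with Lrig1, which encodes a transmembrane regulator of receptor tyrosine kinases, at 0.78 (SE 0.074, adjusted p = 3.70e-09) and the adaptor gene Shc3 at 0.71 (SE 0.078, adjusted p = 1.10e-07). For Lrig1 and Shc3 every Cic-L-KO sample lay above every WT sample, and the share of all genes for which that held is not reported here.

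The p75 partners held 1 gene that rose, Arhgdia (0.09), and 3 that fell out of 11 in Cic-L-KO cortex. The Nogo receptor gene Rtn4r went from 7.61 ± 1.49 CPM in WT to 4.84 ± 0.575 (log2 fold change -0.65, SE 0.10, adjusted p = 8.34e-06), with no overlap. All Cic-L-KO samples lay below all WT samples for 7.25% of all genes. Among neurotrophin-responsive genes Vgf rose (0.40, adjusted p = 4.46e-06), and Egr1 (-0.89, adjusted p = 0.000667) and Homer1 (-0.61, adjusted p = 0.0149) fell. Sorl1, Sorcs1 and Sorcs2, relatives of Sort1, differed in direction: Sorl1 (0.22) and Sorcs2 (0.19) rose and Sorcs1 fell (-0.23, adjusted p = 0.000113).

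**Figure D4:**
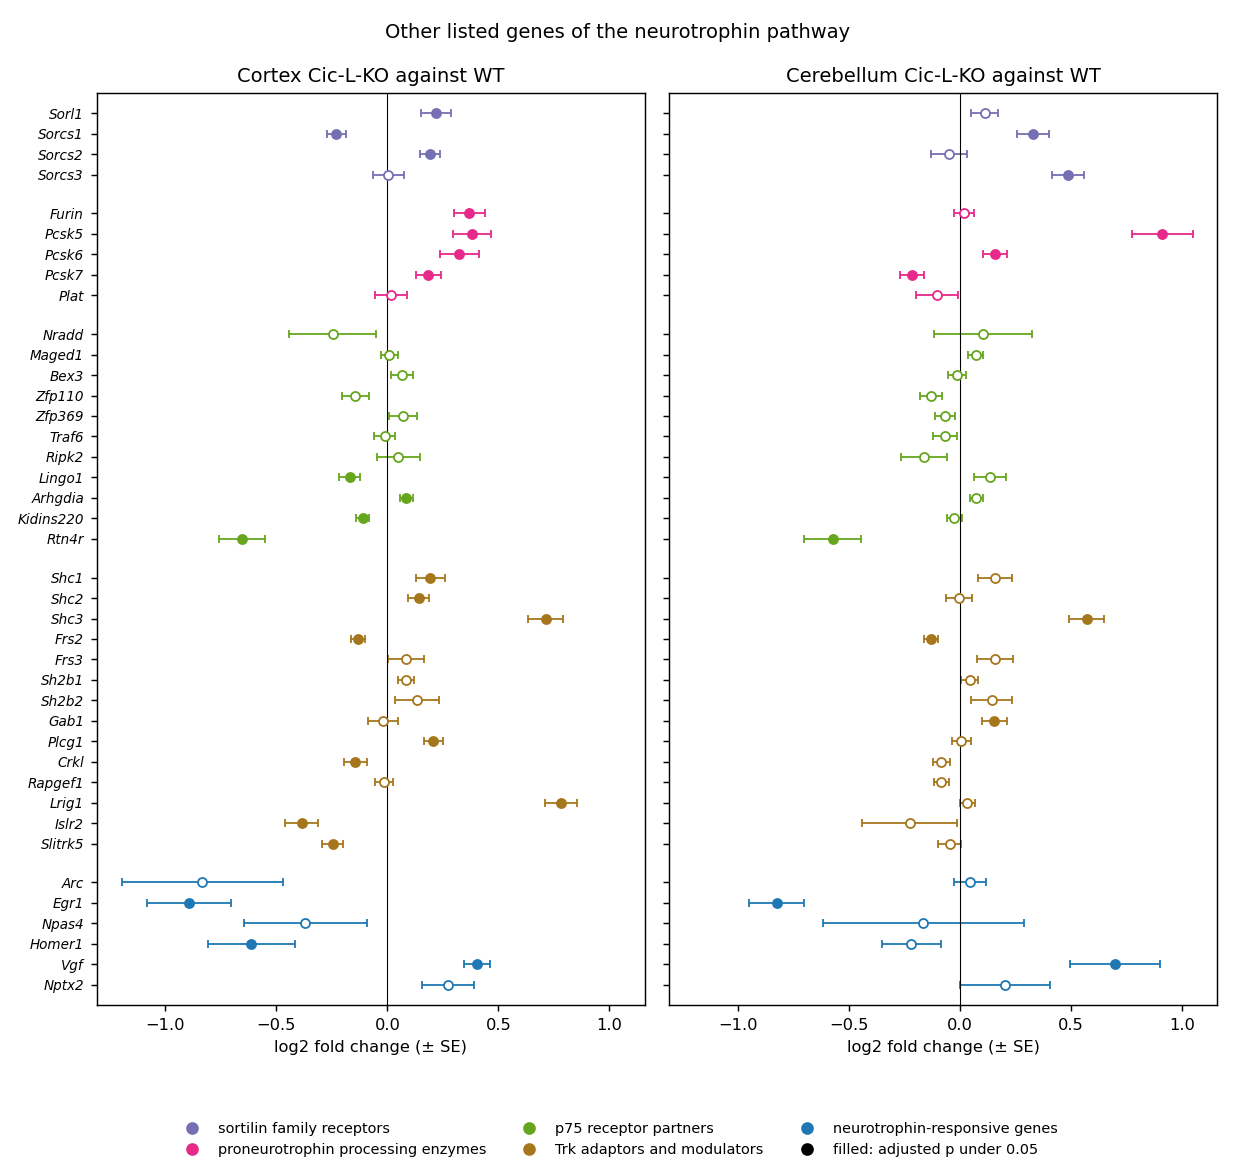
Log2 fold change (± SE) in Cic-L-KO against WT for listed genes of the neurotrophin pathway other than the ligand and Trk receptor genes, in cortex and in cerebellum, grouped by list. Lrig1 (0.78) and Shc3 (0.71) are highest in cortex and Pcsk5 (0.91) in cerebellum, and Egr1 is lowest in both (-0.89 and -0.82).

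In Cic-L-KO cerebellum 7 of the 43 rose and 4 fell, where 21.5% of all genes passed. Pcsk5, which encodes a precursor-cutting enzyme, rose from 2.50 ± 0.526 to 4.70 ± 0.702 CPM (log2 fold change 0.91, SE 0.14, adjusted p = 2.99e-05), Vgf rose by 0.70 (SE 0.20, adjusted p = 0.0165), Shc3 by 0.57 and Sorcs3 by 0.49, while Egr1 fell (-0.82, adjusted p = 6.82e-05), as did Rtn4r (-0.57, adjusted p = 0.00214). In Cic-S-KO cerebellum, where 8.23% of all genes passed, 6 of 43 rose and 2 fell, among them Pcsk5 (0.55, adjusted p = 0.0153), Shc3 (0.44, adjusted p = 0.00186), Sorcs3 (0.30, adjusted p = 0.0122) and Rtn4r (-0.44, adjusted p = 0.0403). The Rtn4r call there was lost in 11 of 23 fits that left out a library, those without WT replicates 2 to 8 or Cic-S-KO replicate 1, 5, 6 or 7 (adjusted p up to 0.101). Both knockouts share the same WT samples, so these values are set side by side only. The median over the 43 genes was 0.02 in Cic-L-KO and 0.06 in Cic-S-KO, against 0.00 and 0.01 over all genes.

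In the cortex of Cic-S-KO against WT, the contrast that chose Ngfr, 3 of the 42 other pathway genes passed in edgeR (6.53% of all genes did), with log2 fold changes of 0.20 for Vgf, 0.20 for Shc2 and -0.29 for Sorl1. In lung, where 15.7% of all genes passed, 3 of 36 fell in Cic-S-KO, Pcsk6 (-0.34, SE 0.099, adjusted p = 0.0217), Plcg1 (-0.13) and Maged1 (-0.13), and 0 of 36 passed in Cic-L-KO (4.89% of all genes). Plcg1 did not pass without WT replicate 4 or Cic-S-KO replicate 6 (adjusted p up to 0.0546), nor did Maged1 without either of these or WT replicate 8 (up to 0.0557). With the knockouts compared directly in cortex, where 33.9% of all genes passed, 7 of the 42 were higher in Cic-S-KO, among them Npas4 (0.86, adjusted p = 0.0226) and Egr1 (0.80, adjusted p = 0.00293), and 11 were lower, among them Nptx2 (-0.67, adjusted p = 0.0002) and Lrig1 (-0.63, adjusted p = 3.02e-07). Npas4 did not pass without Cic-S-KO replicate 2 (adjusted p = 0.0579).

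By the same likeness over the 23 cortex samples, Bdnf was most like Pcsk1 (r = 0.91), Ranbp2 (0.91) and the synaptic scaffold gene Homer1 (0.90), Sort1 with Frrs1l (0.89), and Ntf3 with Gdap1l1 and Mrfap1 (both 0.81). Ntrk2 was most like Lix1 (0.78) and Dbx2 (0.77), and Ntrk3 most like Usp19 and Ralgapa2 (both 0.81).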

How the data were processed

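The values are raw read counts per gene, deposited by the authors, for 70 libraries of polyadenylated RNA. Alignment with STAR 2.7 to GRCm38.p6 is named in the submitters' processing notes, and the counting program, annotation and strand setting are not given in the sources used here. Of 50789 identifiers 50725 were matched to a GENCODE annotation of GRCm38 and 64 were not. Over 238 pairs of replicates 0 were identical and the lowest chi-square per degree of freedom was 3.93, so each library counted as 1 sample. Totals of 17798655 to 35523037 reads left Ngfr with 21 to 284 counts per WT or Cic-S-KO cortex sample and Ntf3 with 16 to 70. The standard error of the log2 fold change in Cic-S-KO against WT cortex was 0.44 for Ngfr and 0.20 for Ntf3.

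Counts were tested per tissue with edgeR 4.0.16 (R 4.3.3; filterByExpr, TMM, robust quasi-likelihood fit of 3 genotypes, Benjamini-Hochberg over all genes kept, threshold 0.05): 16695 genes in lung, 16974 in cortex and 16643 in cerebellum. A fit of 6 brain groups and 18032 genes gave the differences between regions. Standard errors of log2 fold changes came from the F statistic. Levels are TMM-normalised CPM, with factors computed separately within each tissue. Orders and overlaps of CPM between tissues therefore rest on no common factor. They can differ somewhat from the log2 differences of the brain fit, which normalised both regions together. A group median or range is over samples. Likeness is Pearson's r of log2 CPM (prior 0.5) after removing genotype means.

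Named genes were the 6 members and, in the contrasts described, up to 4 called genes of the pathway lists with the largest changes; other list genes named were chosen after their values were seen. Members, lists and tests were chosen with earlier results of these data known. Of the listed markers 6 were not analysed here, and some genes of the lists are not reported here. Alternatives were DESeq2 1.42.0, RLE factors, other filters, a non-robust fit, fewer genotypes, a Y-linked covariate, replicate blocks, a minimum change of 0.5, GC bins, each library left out, and 2 marker covariates added after seeing the data. On counts simulated with 200 genes changed by a log2 of 1, edgeR recovered 171 of 200 in the design of Cic-L-KO against WT cortex (16974 genes, 3.39% of calls false) and 148 in the test of the region difference (18032 genes, 3.27% of calls false). Figures were drawn with matplotlib 3.10.9.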

Additional observations from a re-analysis of the deposited data

Results flagged for a closer look

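In 2 of 54 sets of a gene and a group a sample stood far from the others, where about 1 in 20, or 2.7, is the number chance gives. WT cortex replicate 2 held 4.02 CPM of Ngfr and the next highest WT sample 1.90. Lung Cic-S-KO replicate 4 held 0.901 CPM of Ntf3 and the next lowest 2.81.

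The effect of a knockout differed between cortex and cerebellum by a test of the difference itself (edgeR) in 5 cases. For Cic-S-KO these were Ntrk2 (-0.22 on the log2 scale, cortex minus cerebellum), Ntrk3 (0.29) and Sort1 (-0.25). For Cic-L-KO they were Ntf3 (0.65) and Sort1 (-0.40). The tests of the Cic-S-KO effect contain the cortex contrast that chose Ngfr and are not independent of that choice.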

How the results depend on the processing

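The 23 differences of single members that passed gave 255 values under alternatives that kept all libraries, of which 234 stayed on the same side of the threshold, and none reversed. The 13 of them within a tissue gave 300 values with a library left out, of which 274 stayed and none reversed; the differences between regions were not refitted this way. The log2 fold change of Ngfr in Cic-S-KO cortex moved from 1.71 to 0.77 with the cholinergic and striatal covariates, and the cause was not tested. Without each library it ran from 1.53 to 2.02. A minimum absolute log2 fold change of 0.5 left 1 of 2 members in Cic-L-KO against WT cortex, 2 of 4 between the knockouts in cortex, 0 of 3 in Cic-S-KO cerebellum, 0 of 1 in Cic-L-KO cerebellum, 0 of 2 between the knockouts there, and 0 of 3 and 1 of 2 in the region differences of the Cic-S-KO and the Cic-L-KO effect. In Cic-L-KO against WT cerebellum 0 members passed with no low-count filter, 0 with GC bins removed and 2 with the brainstem covariate, and 0 to 1 without each library. Between the knockouts in cerebellum 4 passed with that covariate and 1 to 4 without each library. Between the knockouts in lung 1 passed, 0 with only the compared genotypes (Ntf3, adjusted p = 0.0719), 2 with the Y-linked covariate and 0 to 2 without each library. Apart from the minimum size, whose construction removes small changes, the cause was not tested. Ngfr and Ntf3 had the fewest reads of the members in cortex, and the effect of depth was not tested.

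Replicate numbers are shared between genotypes and regions. Samples of the same number correlated above 0.1 in 15 of 23 cortex and cerebellum pairs (r -0.031 to 0.262), with 7 of 7 in Cic-S-KO, 7 of 8 in WT and 1 of 8 in Cic-L-KO. Between genotypes they did so in 16 of 24 lung pairs, 10 of 22 cortex pairs and 9 of 22 cerebellum pairs of deviations. Samples were not taken as pairs in the main fits. In Cic-S-KO brain, replicates 2 to 7 carry the numbers 3 to 8 in their library names. Pairs of these replicates with another genotype within a brain region therefore join different library numbers and cannot decide the pairing. The block by replicate number within a brain region has the same limit. Of the 23 cortex and cerebellum pairs, 11 correlated best with their own number, 6 of them among the 7 of Cic-S-KO. Between genotypes 12 of 24 lung pairs did, against 5 of 22 cortex pairs and 3 of 22 cerebellum pairs. With genotype and number as a replicate block, no member's call changed in the differences between regions (3 members for the Cic-S-KO and 2 for the Cic-L-KO effect). With the number as a replicate block, 1 member passed in Cic-S-KO against WT lung in place of 0 (Ntrk3, -0.34, adjusted p = 0.0419), 2 in place of 1 between the knockouts in lung (Bdnf added), and 0 in place of 2 between the knockouts in cerebellum (Ntf3 0.0991, Ntrk3 0.0542). Ntf3 in Cic-S-KO cerebellum had an adjusted p of 0.0954 with the block. Of the other pathway genes named for Cic-S-KO cerebellum, Pcsk5 (0.0541), Rtn4r (0.0752) and Sorcs3 (0.0506) were also lost. The block by the number in the library name, which in lung is the replicate number and so gave the same counts of 1 and 2, ended 0 member calls within tissues, and of the named pathway genes ended Rtn4r in Cic-S-KO cerebellum (0.0714) and Vgf in Cic-L-KO cerebellum (0.0508).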
